A study of Homo sapiens with 10 samples.

Results

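BCL11B (ENSG00000127152.13 in the deposited files) is 1 of the 55889 gene IDs measured in every library of this series. It was chosen by its measured pattern in these same libraries, so its own values are given as a description and carry no test. The cells were KOPT-K1, an established human line of T-cell acute lymphoblastic leukaemia (T-ALL). They received silvestrol at 25 nM or the solvent DMSO for 45 minutes. Ribosome footprints, the RNA pieces that a ribosome shields from nuclease, were sequenced in 2 silvestrol and 2 DMSO libraries, and total RNA in 3 silvestrol and 3 DMSO libraries. Both treatments were given to the same cell line, which is 1 model of the disease, and nothing in the labels says whether numbered libraries came from separate cultures. The p-values given for other genes therefore measure the spread between libraries, which may be technical.

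BCL11B, also called CTIP2, is a zinc finger transcription factor that thymocyte progenitors switch on as they commit to the T lineage, and it keeps progenitor and natural killer genes off afterwards. It acts with chromatin complexes, among them the nucleosome remodelling and deacetylase complex (NuRD) and the SWI/SNF complex BAF. In human T-ALL the gene is a known target of deletions and mutations and of translocations that place its enhancer beside other genes. Silvestrol locks the helicase eIF4A onto RNA and so blocks scanning by the small ribosomal subunit, with most effect on mRNAs whose 5′ untranslated region (UTR) is structured. The series title names RNA G-quadruplexes, stacked structures formed by runs of G, as such an element.

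GENCODE release 29, which is on GRCh38 and not on the submitters' build, places BCL11B on chromosome 14, minus strand, with 3 protein-coding transcripts. BCL11B-201 has 3 exons, a 5′ UTR of 267 nt and a coding part of 2469 nt. BCL11B-202 has 4 exons, an annotated 5′ UTR of 10 nt and a coding part of 2682 nt. BCL11B-203 has 2 exons, a 5′ UTR of 306 nt and a coding part of 2100 nt. The 5′ UTRs of BCL11B-201 and BCL11B-203 lie in the first exon and share a run of 7 GGC triplets, shown because a run of this length is uncommon among 5′ UTRs. The second stretch ends with the annotated start codon and is shown because a pair of upstream ATG codons precede it. They were read from BCL11B-203 in GENCODE release 29 and are written as DNA, 5′ to 3′. Capitals mark the GGC run in the first and every ATG in the second, the last of which is the annotated start.
GGC run, GRCh38 chr14:99271311-99271339, minus strand: gtgcGGCGGCGGCGGCGGCGGCGGCagcg
Start codon, GRCh38 chr14:99271216-99271245, minus strand: ggcgATGccagaatagATGccggggcaATG

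The first upstream ATG opens a reading frame of 3 codons and a stop that ends before the annotated start. The second is out of frame with the annotated start and, in BCL11B-203, its frame runs across that start. A pattern of 4 runs of at least 2 G with 1 to 7 bases between them was present in BCL11B-201 and BCL11B-203. The stricter pattern with runs of at least 3 G was absent from all 3 transcripts. These patterns were searched on the RNA strand, and the GGC run and the looser G pattern overlap. They describe the letters and do not show that a structure forms.

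Among 8892 other tested protein-coding genes with a 5′ UTR, each taken with its longest annotated one, 51 (0.574%) held a GGC run at least as long as that of BCL11B, and 3.76% held a run of at least 4. Among the 1770 genes whose 5′ UTR was within 20% of the length of that of BCL11B, 0.565% and 4.69% did. The stricter G pattern was found in 10.6% of those 1770 5′ UTRs, the looser one in 80.1% and at least 1 upstream ATG in 80.0%. The GC content of the longest BCL11B 5′ UTR, that of BCL11B-203, was 53.6%, against a median of 62.2% in them. It was 57.3% in BCL11B-201 and 80.0% in the 10 nt of BCL11B-202, whose longest GGC run was 1. The deposited values are per gene, so they do not show which transcript these cells express. The long GGC run was thus uncommon, while the looser G pattern and the upstream ATG were shared by most 5′ UTRs of this length.

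Silvestrol-treated cells had fewer BCL11B footprints and more BCL11B RNA than DMSO-treated cells, relative to the other genes of each library. BCL11B footprints were 9.26 and 9.95 RPKM in the silvestrol libraries, against 19.5 and 19.4 RPKM in the DMSO libraries. RPKM scales reads to gene length and to the reads of the library, so it is a relative level, and a change shared by all genes of a library is lost in it. Both silvestrol footprint libraries lay below both DMSO libraries, with a wide gap between the groups. BCL11B RNA was 22.8, 23.2 and 22.8 RPKM in the silvestrol libraries, against 18.3, 19.2 and 18.9 RPKM in the DMSO libraries. The RNA groups did not overlap either, and here the silvestrol libraries were the higher ones. With so few libraries, groups can separate without a treatment difference, and how many of all tested genes did so was not counted. In bulk RNA, a different number of expressing cells and a different amount of RNA per cell cannot be told apart.

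**Figure D1:**
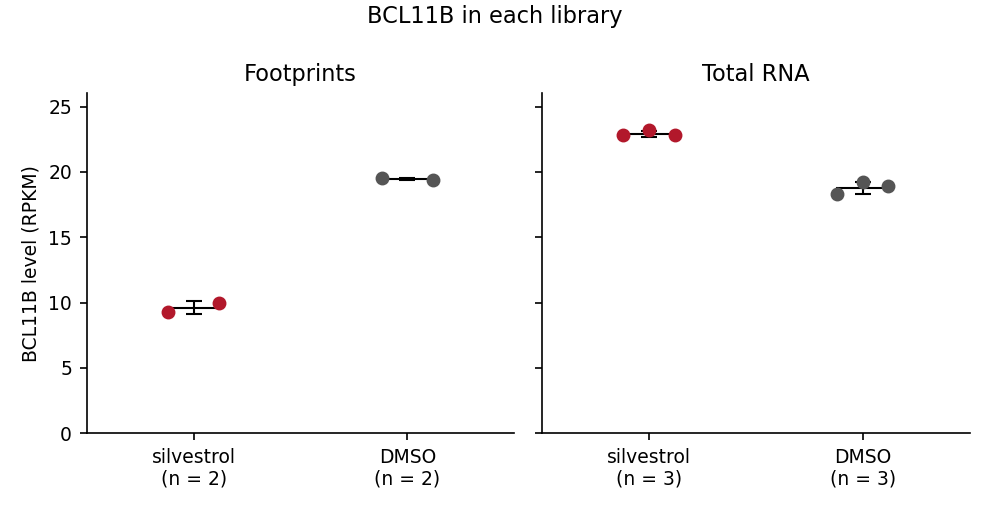
BCL11B level in RPKM in each footprint library (left) and each total RNA library (right), with silvestrol libraries left of DMSO libraries in each panel. Points are libraries, bars the mean and SD. Silvestrol footprints sit at 9.26 and 9.95 RPKM, against 19.5 and 19.4 RPKM in DMSO, while RNA is higher in silvestrol.

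Footprints averaged 9.61 ± 0.49 RPKM in silvestrol and 19.45 ± 0.071 RPKM in DMSO (SD, n = 2 each), so the silvestrol mean was 49.4% of the DMSO mean. On the log2(RPKM + 0.5) scale, which is used for every log2 change here and understates changes of low genes, the difference was -0.98. The 4 pairings of a silvestrol with a DMSO footprint library gave log2 ratios of RPKM between -1.07 and -0.96. RNA averaged 22.9 ± 0.23 RPKM in silvestrol and 18.8 ± 0.46 RPKM in DMSO (SD, n = 3 each), a 1.22-fold difference and a log2 change of 0.28. The 9 pairings of RNA libraries gave log2 ratios between 0.25 and 0.34. The 2 assays thus moved in opposite directions in each pairing of libraries.

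The footprint values rest on few reads. The step between low values and the exon lengths of GENCODE release 29 give an estimated 173 and 159 BCL11B reads in the silvestrol footprint libraries, against 347 and 253 in the DMSO libraries. From these, counting error alone would give the footprint log2 change an SE of 0.0987. The log2 SD between replicates was 0.07 in silvestrol and 0.0051 in DMSO footprints. Of the 500 genes of similar RNA level described next, 90 had a smaller SD in silvestrol footprints and 4 in DMSO footprints. The DMSO agreement was thus closer than in nearly all of those genes. Both BCL11B footprint SDs were below that counting SE, which is for the difference between groups and so not a like measure.

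To place these changes, BCL11B was set beside the 500 tested protein-coding genes nearest to it in DMSO RNA level, which lay between 17.2 and 20.8 RPKM. No gene of the 500 had a lower footprint change, and the matched median was -0.08 with a lowest value of -0.86. No gene of the 500 had a higher RNA change, where the median was -0.0024 and the highest value 0.23. Of the 500, 144 had fewer footprints and more RNA in silvestrol than in DMSO. BCL11B therefore lay outside the range of these 500 genes in both assays. In footprints 4 of the 1000 genes nearest in RNA level had a lower change, as did 4 of the 500 nearest in DMSO footprint level and 92 of all 9016 other tested protein-coding genes. Its place at the edge is what the gene was chosen for, so these ranks are no test of it.

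**Figure D2:**
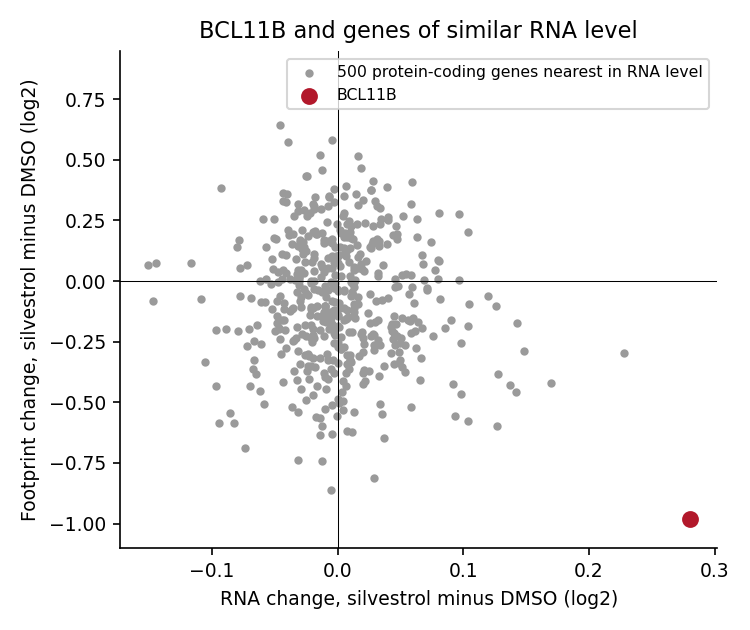
RNA change (x axis) and footprint change (y axis), silvestrol minus DMSO on the log2 scale, of BCL11B (red) and the 500 protein-coding genes nearest to it in DMSO RNA level (grey, 1 point a gene). BCL11B lies at 0.28 and -0.98, outside the range of the grey points on both axes.

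Dividing footprints by RNA gives the translational efficiency of a gene, which combines both changes. The footprint to RNA ratio of BCL11B was 0.419 in silvestrol and 1.035 in DMSO, computed from group means of RPKM. Each footprint library over the mean RNA of its treatment gave 0.404 and 0.434 in silvestrol, against 1.037 and 1.032 in DMSO. The silvestrol ratio was 40.5% of the DMSO ratio. The log2 change in translational efficiency was -1.26, of which footprints made up 77.8% and RNA 22.2%.

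The place of BCL11B among genes of similar RNA level differed between the treatments. In silvestrol 111 of the 500 matched genes had a lower ratio than BCL11B, and the matched median was 0.654. In DMSO 394 of the 500 had a lower ratio, and the matched median was 0.699. BCL11B was therefore in the lower part of the distribution in silvestrol and in the upper part in DMSO, while the matched median was similar in both treatments. These ratios depend on gene length, because RPKM divides footprints by the whole exon length although ribosomes translate the coding part. The annotated exons of BCL11B cover 7855 nt, 2.93 times its coding length of 2682 nt, with a matched median of 3.04 times. With footprints rescaled to coding length, the BCL11B ratio was 1.23 in silvestrol and 3.03 in DMSO, and 139 of the 500 matched genes were lower in silvestrol and 330 in DMSO.

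**Figure D3:**
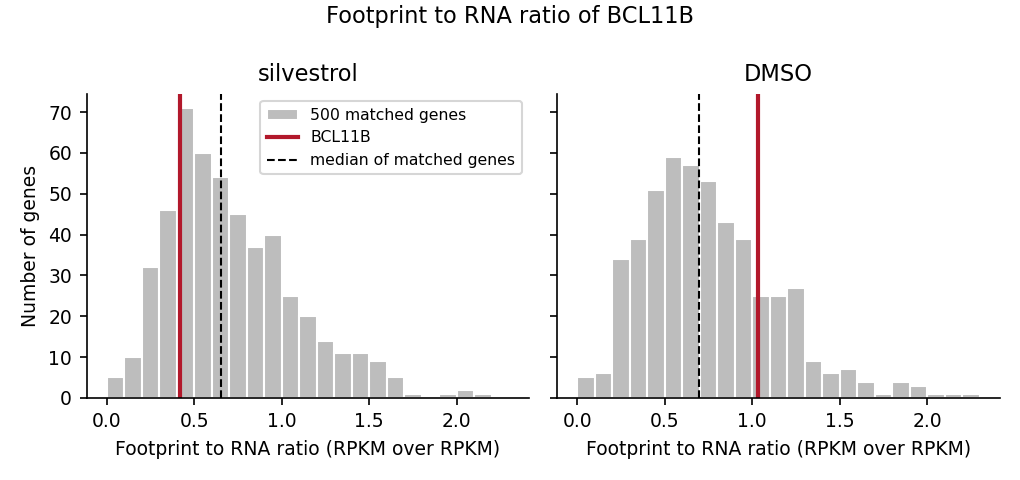
Number of genes (y axis) by footprint to RNA ratio (x axis, RPKM over RPKM) among the 500 matched genes, for silvestrol (left) and DMSO (right). The red line is BCL11B and the dashed line the matched median. BCL11B lies at 0.419, below the median of 0.654, in silvestrol and at 1.035, above the median of 0.699, in DMSO.

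In change of translational efficiency, no gene of the 500 matched on RNA lay below BCL11B, and the lowest of them was at -0.86. Among the 500 genes nearest in DMSO footprint level, which lay between 17.4 and 22.4 RPKM, 2 lay below BCL11B. They were NOCT, which encodes the rhythmically expressed protein nocturnin, at -1.29, and SHISA2 at -1.26, just beyond BCL11B. Over all 9016 other tested protein-coding genes, 31 (0.344%) had a lower value. These 31 genes had an estimated 0.501 to 75.0 footprint reads per library with a median of 10.2, against 233 for BCL11B. The genes just inside were TLE4, a transcriptional corepressor, at -1.26, and the zinc finger gene ZNF613 at -1.24, with an estimated 19.0 and 11.5 footprint reads per library. SHISA2, TLE4 and ZNF613 are named for their place beside BCL11B. None of the 31 genes had as many reads behind it as BCL11B, but 81.6% of all 9016 genes also had fewer.

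The RNA rise was small in fold but high in rank. Of the 9016 genes, 11 (0.122%) had a larger RNA change than BCL11B. The largest was that of MYC, the transcription factor that drives T-ALL proliferation, whose RNA was 103 RPKM in silvestrol and 77.9 RPKM in DMSO, a log2 change of 0.40 (limma adjusted p = 0.0451). Among the others were the zinc finger genes ZNF184 at 0.32 and ZNF174 at 0.28 (limma adjusted p = 0.00926 and 0.0226). ZNF613 was also among them, at 0.30, and was not called (limma adjusted p = 0.0936). The share of zinc finger genes over all tested genes was not counted. These genes were picked out after their values were seen. No gene was called higher in RNA with no filter, without DMSO replicate 1 or without DMSO replicate 3, so these calls were lost there. Without DMSO replicate 2 and without silvestrol replicate 3 the number of genes called higher was 5 and 1, against 28 with all libraries.

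Genes with a profile like that of BCL11B were sought by the Euclidean distance between log2 values over the 10 libraries, each gene centred on its mean within each assay. The 5 nearest of 9016 protein-coding genes were EP300, NOCT, FBXO44, ZNF429 and HPDL, at distances of 0.285 to 0.359 against a median of 1.06. EP300, a histone acetyltransferase, had 5.13 and 4.97 RPKM of footprints in silvestrol, against 10.1 and 8.79 RPKM in DMSO. Its RNA was 16.6, 15.4 and 16.6 RPKM in silvestrol, against 14.3, 13.9 and 14.6 RPKM in DMSO. The EP300 groups did not overlap in either assay, which the choice by likeness to BCL11B favours. The share of all tested genes with such groups was not counted. None of the 5 genes was called by limma in translational efficiency, footprints or RNA.

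NOCT footprints averaged 8.01 ± 1.2 RPKM in silvestrol and 17.8 ± 1.8 RPKM in DMSO (SD, n = 2 each). FBXO44, which encodes a substrate adaptor of a ubiquitin ligase, averaged 3.36 ± 0.37 RPKM in silvestrol footprints and 6.54 ± 0.32 RPKM in DMSO footprints. HPDL averaged 2.51 ± 0.085 RPKM in silvestrol footprints and 6.11 ± 0.33 RPKM in DMSO footprints. The zinc finger gene ZNF429 averaged 0.862 ± 0.041 RPKM in silvestrol footprints and 1.83 ± 0.064 RPKM in DMSO footprints. Estimated footprint reads per library were 13.9 in ZNF429, 14.2 in HPDL, 35.8 in FBXO44, 65.2 in NOCT and 187 in EP300, against 233 in BCL11B. The small SDs of genes with few reads follow in part from the choice by likeness. The RNA change was 0.18 in EP300 and 0.19 in NOCT, and between 0.05 and 0.12 in the other 3. In their longest annotated 5′ UTRs the GGC run was 4 triplets in EP300, 3 in NOCT, 2 in FBXO44 and 1 in ZNF429 and HPDL, against 7 in BCL11B. By Pearson correlation of the same profiles, none of these 5 was among the first 5, although their r with BCL11B was 0.95 to 0.97. With a pseudocount of 0.1 HPDL was not among the 5 nearest, and with a pseudocount of 1 ZNF429 was not. The list of like genes thus depends on the measure of likeness and in part on the pseudocount.

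**Figure D4:**
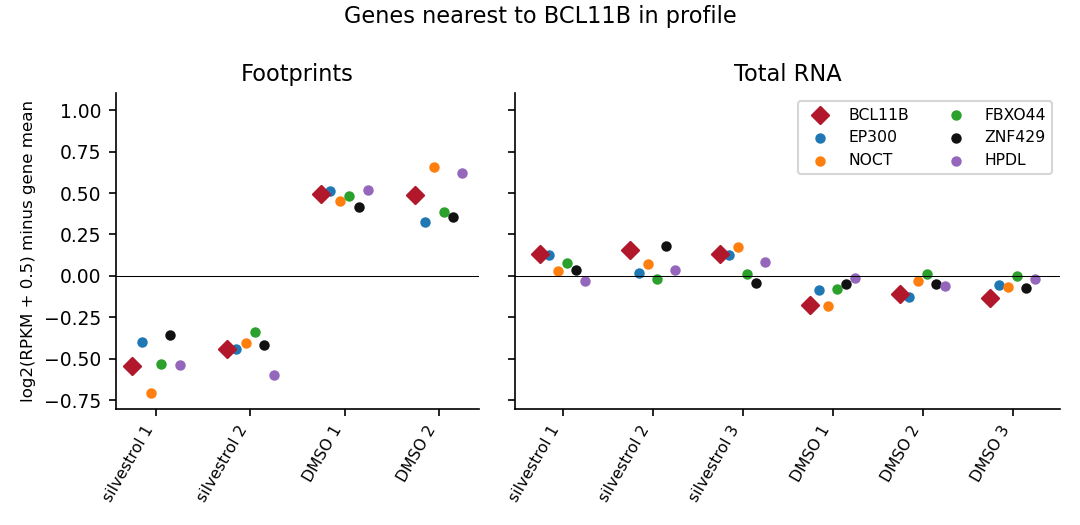
log2(RPKM + 0.5) minus the mean of the gene within the assay (y axis) in each footprint library (left) and RNA library (right), for BCL11B (red diamonds) and the 5 genes nearest in profile (circles). All 6 genes are below 0 in both silvestrol footprint libraries and above 0 in both DMSO footprint libraries.

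The long GGC run gave another set to compare with. The 51 tested genes with a GGC run at least as long had a median log2 change in translational efficiency of -0.20 and values between -1.14 and 0.67, against a median of -0.08 over the 8892 genes with a 5′ UTR. None of the 51 lay below BCL11B, and 36 of them were negative, against 5405 of the 8892. The 334 genes with a run of at least 4 had a median of -0.14, with 233 negative and 1 below BCL11B. Both sets held values in both directions. Whether their medians differ from that of all genes was not tested.

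The genes around BCL11B on its chromosome were looked at next, since overlapping genes can share reads. The antisense transcript ENSG00000235785, which lies within the BCL11B span on the plus strand, was listed at 0 in all 4 footprint libraries. Its RNA averaged 0.311 ± 0.052 RPKM in silvestrol and 0.297 ± 0.058 RPKM in DMSO (SD, n = 3 each), far below BCL11B. Whether counting used strand is not stated in the labels, so reads of both genes cannot be told apart where they overlap. The nearest tested gene on the side of higher coordinates, the histidine methyltransferase gene SETD3, stood at -0.29 in translational efficiency on the log2 scale (SE 0.23, limma adjusted p = 0.845). RPL3P4, the nearest tested gene on the other side, is a ribosomal protein pseudogene with an estimated 1.25 footprint reads per library. Reads could be split between it and its parent gene, so its change of 0.46 is uncertain (SE 0.68, limma adjusted p = 0.94).

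Genes that work with or around BCL11B were taken in 5 lists of 105 genes, of which 79 passed the filter of a mean of at least 1 RPKM in each assay. None of the 79 was called in translational efficiency, footprints or RNA by limma at an adjusted p under 0.05. Over all 10297 tested genes 0.107% were called in translational efficiency, 0.0486% in footprints and 0.282% in RNA, so calls were rare throughout. No tested list member had a translational efficiency change as low as that of BCL11B. At an unadjusted p under 0.05 the counts over all tested genes were 760, 719 and 950.

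The regulators of T-lineage commitment, which include activators of the BCL11B gene, were all tested (17 of 17). In translational efficiency 14 were negative and 3 positive, with a median of -0.15, against -0.078 over all tested genes. Of the 8892 tested protein-coding genes with a 5′ UTR 5405 were negative, so a negative majority, here and in the other lists, was common among genes in general. GATA3, which with NOTCH signalling and TCF7 helps to switch BCL11B on, had 20.8 ± 2.8 RPKM in silvestrol footprints and 26.6 ± 3.0 RPKM in DMSO footprints (SD, n = 2 each). Its RNA was 29.1 ± 1.9 RPKM in silvestrol and 24.6 ± 0.80 RPKM in DMSO (SD, n = 3 each), or 0.24 on the log2 scale (SE 0.045, limma adjusted p = 0.0766). The GATA3 RNA difference was called with voom on estimated reads and with the replicate block (limma adjusted p = 0.0278 and 0.0352).

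In translational efficiency the log2 change was -0.59 for GATA3 (SE 0.30, limma adjusted p = 0.705), and -0.54 for the E protein TCF12 (SE 0.29, limma adjusted p = 0.732). For RUNX1, a partner of BCL11B at many T-cell genes, it was -0.48 (SE 0.19, limma adjusted p = 0.594). TCF7 and the receptor gene NOTCH1 were at -0.15 and -0.19 (limma adjusted p = 0.921 and 0.942). The paralog BCL11A, at 3.79 ± 0.84 RPKM in silvestrol footprints and 5.13 ± 0.56 RPKM in DMSO footprints (SD, n = 2 each), was at -0.53 (SE 0.32, limma adjusted p = 0.765). The differences between these genes were not tested. With 1 spread for both assays RUNX1 and TCF12 were called (limma adjusted p = 0.0268 and 0.0289). That setting leaves out that footprints varied more than RNA, so its calls were not relied on. How many of them are false was not shown. Over all tested genes that setting called 411 lower and 134 higher, against 9 and 2 with a weight per assay. The lowest of the 17 was ETS1 at -0.69 and the highest the NOTCH target HES1 at 0.91, both named after their values were seen (limma adjusted p = 0.483 and 0.62). Both were called with 1 spread for both assays, and ETS1 also with voom on estimated reads (limma adjusted p = 0.0256, 0.0351 and 0.0209). LEF1, a factor related to TCF7 and also named after its values were seen, averaged 65.7 ± 0.21 RPKM in silvestrol footprints and 97.8 ± 7.4 RPKM in DMSO footprints (SD, n = 2 each). Its translational efficiency change was -0.60 (SE 0.16, limma adjusted p = 0.304), the lowest adjusted p among the 17. LEF1 was called with 1 spread and with voom in translational efficiency (limma adjusted p = 0.00443 and 0.00976), and with voom in footprints (limma adjusted p = 0.0253).

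Of the BAF complex 22 of 25 genes were tested, with 13 negative, 9 positive and a median of -0.12 in translational efficiency. The catalytic subunit SMARCA4 was at -0.13 (SE 0.19, limma adjusted p = 0.942). The large subunit ARID1A was at -0.14 (SE 0.28, limma adjusted p = 0.956), with silvestrol footprints that varied widely, at 18.0 ± 6.6 RPKM against 18.1 ± 0.071 RPKM in DMSO (SD, n = 2 each). The lowest of the BAF genes was SMARCD2, named after its values were seen, at -0.49 (SE 0.16, limma adjusted p = 0.482). SMARCD2 was called with 1 spread for both assays (limma adjusted p = 0.0107), the setting that called 411 genes lower over all tested genes. Of NuRD and other corepressors 18 of 20 were tested, with 14 negative, 4 positive and a median of -0.12. The remodeller CHD4 was at 0.02 (SE 0.25, limma adjusted p = 0.994), HDAC1 at -0.02 (SE 0.16, limma adjusted p = 0.992) and MTA1 at -0.20 (SE 0.31, limma adjusted p = 0.942). MTA2 at -0.62 (limma adjusted p = 0.268) and the orphan receptor gene NR2F6 at -1.03 (limma adjusted p = 0.591) were lowest, and are named after their values were seen. MTA2 was called with 1 spread and with voom (limma adjusted p = 0.00443 and 0.0181). NR2F2, which encodes a COUP-TF protein, the family that CTIP2 is named for binding, had RNA of 0.0131 RPKM in silvestrol and 0.00721 RPKM in DMSO and was not tested.

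**Figure D5:**
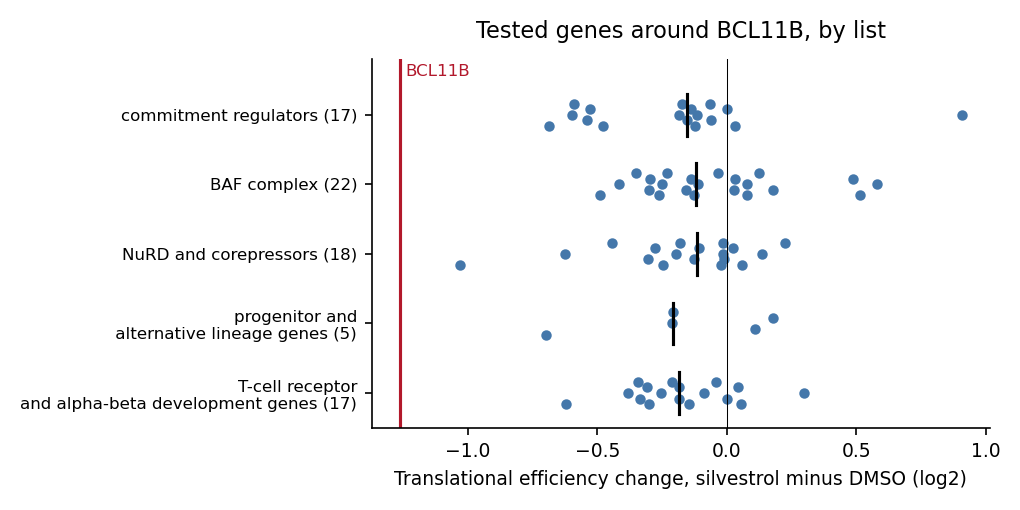
Log2 change in translational efficiency (x axis, silvestrol minus DMSO) of the tested genes of each list, with the number tested in brackets. Points are genes, black bars list medians and the red line BCL11B. The lists have medians between -0.21 and -0.12, and no point reaches BCL11B at -1.26.

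Of 20 T-cell receptor and alpha-beta development genes 17 were tested, with 14 negative, 3 positive and a median of -0.19 in translational efficiency. Of 23 genes of progenitors and alternative lineages, many of which BCL11B holds down in T cells, 5 were tested, and 16 had an RNA mean under 1 RPKM in both treatments. Over the whole series 10297 of 55889 gene IDs were tested. That is not a like measure, because the filter needs both assays and the IDs cover all gene types. The share of protein-coding genes with RNA under 1 RPKM was not counted. The highest of the 23 was LMO2, named after its values were seen, with RNA of 42.0 RPKM in silvestrol and 40.9 RPKM in DMSO. Whether BCL11B holds the low ones down in these cells was not tested. The 5 tested ones had a median of -0.21 in translational efficiency. The cell identity was checked with markers, of which 9 of 9 T-cell genes had RNA of at least 1 RPKM. Their summed RNA was 1450 to 1510 RPKM in silvestrol libraries and 1470 to 1520 RPKM in DMSO libraries. The 5 myeloid and 3 erythroid markers were under 1 RPKM, as were 3 of 4 stromal and endothelial markers, the other one having no matched ID. Of the 5 B-cell markers, CD79A and CD79B were above it and MS4A1 and PAX5 were at 0 in every RNA library. The B-cell markers summed to 37.7 to 39.5 RPKM in silvestrol libraries and 39.5 to 41.4 RPKM in DMSO libraries.

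The estimated depth was 2377000 and 2035000 reads in the silvestrol footprint libraries, against 2268000 and 1661000 in the DMSO footprint libraries. RNA libraries were deeper, at a rougher estimate of 126600000 to 216700000 reads. Footprints were above 0 for 14491 to 14933 genes per library, and RNA for 26561 to 28377. Footprints were therefore the less precise of the 2 assays.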

How the data were processed

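The authors deposited 1 file of RPKM values per library, per the file headers. The submitters' processing notes name STAR and hg19, without version or role. The sources used here name no counter, gene lengths, strand setting or treatment of multi-mapped reads. Groups and numbers came from sample titles. BCL11B and the gene lists were chosen with earlier results of these data known. Gene types, exon lengths and 5′ UTRs came from GENCODE release 29, matched by ID, and names matched 49395 IDs. Values were used as log2(RPKM + 0.5). Genes with a mean of at least 1 RPKM in each assay were tested in R 4.3.3 with limma 3.58.1 (lmFit, eBayes with trend and robust, Benjamini-Hochberg adjustment, two-sided). Translational efficiency was the interaction of assay and treatment over 10 libraries, with weights per assay (arrayWeights), because footprints varied more than RNA. Footprints and RNA were also fitted alone. The fits were also run on simulated reads, with a spread set by hand and changes in silvestrol footprints only. That run does not show how the fits behave on these libraries. Reads were estimated from the steps between low values of single-transcript genes, of which 90.2% to 92.9% lay within 0.05 of a whole read; they cover counting error only. Named were BCL11B, the 5 genes most like it, its neighbours, list members that were called, and NOTCH1, TCF7, GATA3, RUNX1, TCF12, BCL11A, SMARCA4, ARID1A, CHD4, MTA1, HDAC1 and NR2F2. No list member was called. ETS1, HES1, LEF1, SMARCD2, MTA2, NR2F6, LMO2, MYC, ZNF184, ZNF174, SHISA2, TLE4 and ZNF613 fall outside this rule and were named after their values were seen. Other pseudocounts, filters, scalings, gene windows, spreads, a replicate block and leaving out each library were tried.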

Additional observations from a re-analysis of the deposited data

How the results depend on the processing

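The direction of each of the 3 BCL11B log2 changes held with other pseudocounts, other scalings, the replicate block and each library left out. BCL11B was chosen by these same values and its groups did not overlap, so the held direction is no test of it. Leaving out each library gave -1.31 to -1.21 in translational efficiency, -1.03 to -0.933 in footprints and 0.261 to 0.295 in RNA, ratios of 0.404 to 0.434 in silvestrol and 1.02 to 1.05 in DMSO, and 0 matched genes with a lower change and 392 to 406 with a lower DMSO ratio. Median scaling gave -1.20 in translational efficiency and -0.930 in footprints, and quantile normalization -0.927 in footprints, by recentring the libraries. Per coding length the ratio was 1.23 in silvestrol and 3.03 in DMSO. With genes matched on footprints, 2 lay below BCL11B. With Pearson correlation, 0 of the 5 like genes were shared.

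Counts of calls were unstable. In translational efficiency 9 genes were called lower and 2 higher. With 1 spread for both assays these were 411 and 134, of which 6 and 1 were list genes, and voom on estimated reads gave 20 lower, 3 of them list genes. Calls higher were 7 with no filter, 4 with quantile normalization and 4 with the replicate block, and without single libraries calls were 6 to 32 lower and 2 to 12 higher, with 0 list genes. In footprints 3 were called lower and 2 higher. Lower calls were 0 with a pseudocount of 0.1, 1 with no filter and 18 with voom, 3 of them list genes, and higher calls 1 with no filter, 5 with quantile normalization and 6 with voom. Without any single footprint library they were 0 and 0. In RNA 1 was called lower and 28 higher. These were 0 and 0 with no filter, 4 and 69 with voom, 0 lower with quantile normalization, and 0 to 5 lower and 0 to 30 higher without single libraries, with 0 to 1 list genes. List genes called higher in RNA numbered 1 with voom. The cause of these shifts was not tested.

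With the replicate block, footprint calls were 0 lower and 1 higher, and RNA calls 8 lower and 49 higher, 1 of them a list gene. Same-numbered libraries did not deviate together, with correlations of -0.03 in footprints and of 0.04, -0.33 and 0.15 in RNA, so the numbers were not taken as pairs. Depth limits the footprint values, at an estimated 159 to 347 BCL11B reads per library.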
